A study of Mus musculus with 16 samples.

Results

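Matrix-bound nanovesicles (MBV) were compared with vehicle in the livers of pair-fed mice, the animals of the study that received no ethanol. The members were the 8 libraries labelled PF or PF+MBV, 4 of each, out of 16 libraries in the whole series. PF mice were pair-fed the control diet and given vehicle, and PF+MBV mice were pair-fed and given MBV. The remaining libraries, labelled EtOH and EtOH+MBV, came from mice fed ethanol by the chronic-plus-binge scheme of the NIAAA, without and with MBV, and served here to test whether the MBV difference depended on the diet and, in a fit of all 16 libraries, as an alternative to the pair-fed fit. Polyadenylated RNA of whole liver was sequenced. The sources used here do not give the strain, sex, age or number of the mice, the source, dose, route or timing of MBV, or the hour of tissue collection. Nothing in the labels shows that the 4 repeats of a group came from separate mice. The p-values therefore speak to the spread between these samples, which may be technical.

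Matrix-bound nanovesicles are small membrane vesicles held in the extracellular matrix, the protein mesh between cells, and can be released from it when tissue is stripped of its cells. They carry lipids, proteins and small RNAs, and are studied for their effects on macrophages and on tissue repair. The liver makes most plasma proteins, cholesterol, bile acids and urea. Its hepatocytes follow the feeding state, the circadian clock and the pulses of growth hormone through the transcription factors SREBP, CLOCK and STAT5. Whole liver is a mixture of hepatocytes with endothelial cells, macrophages, stellate cells and bile duct cells, so fewer cells of a type and less RNA per cell cannot be told apart in these data.

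The 8 libraries held 15.3 M to 20.5 M counts in genes and detected 15173 to 15856 genes. The unmapped share of reads was 15.9% to 19.9% in PF and 14.5% to 16.0% in PF+MBV. The 50 most abundant genes took 32.1% to 34.6% of the counts in PF and 30.8% to 32.5% in PF+MBV. All 14 hepatocyte markers were measured, with albumin (Alb) between 63828 and 97038 CPM. CPM are counts per 1000000 after scaling of the library sizes. Along the leading principal component of log2 CPM, with 38.9% of the variance, PF 1, PF 3 and PF 4 lay at -28.5 to -25.2 and the PF+MBV libraries at 13.4 to 22.4. PF 2 stood apart from the other PF libraries, at 2.6 on the first component and at 33.9 on the second, which held 19.6%. Counts of changed genes that moved by more than 1.5 times without PF 2 are therefore given with and without it. Throughout, a CPM value after ± is the SD over the 4 libraries of a group, and a log2 value after ± is the standard error of the difference. Counts of library pairs within a group differed with a chi-square per degree of freedom of 8.29 to 15.4 in PF+MBV and 14.1 to 59.2 in PF, so no pair of libraries agreed within sampling noise.

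**Figure D1:**
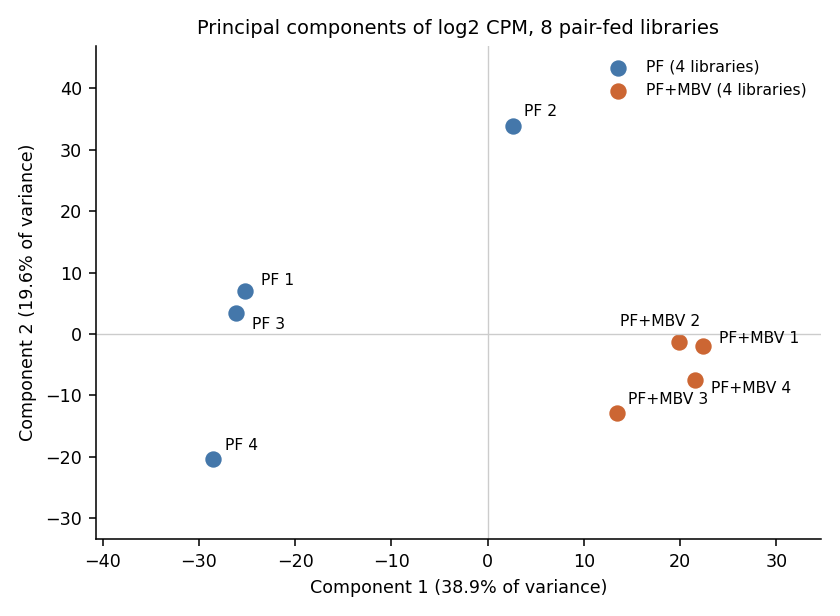
Principal components of log2 CPM over the 12478 tested genes in the 8 pair-fed libraries, with component 1 on the horizontal and component 2 on the vertical axis. Each point is a library, coloured by group; the 4 PF+MBV libraries lie together at 13.4 to 22.4 on component 1, and PF 2 lies at 2.6, away from the other PF libraries at -28.5 to -25.2.

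With MBV, liver RNA of the growth hormone feedback gene Socs2, the circadian genes Per2 and Per3 and several amino acid enzymes and acute phase proteins was lower. RNA of several enzymes of cholesterol and fatty acid synthesis and of glutathione and quinone defence, of tubulins and of matrix proteins was higher. Of 12478 tested genes, 1064 (8.53%) had an adjusted p under 0.05 in the quasi-likelihood test of edgeR, adjusted by Benjamini-Hochberg, and are here called changed. Of these, 503 (4.03%) were higher and 561 (4.5%) lower with MBV, and 3332 genes had an unadjusted p under 0.05. A change of at least 2-fold was reached by 72 of the higher and 61 of the lower genes, and the median size over all changed genes was 0.54 on the log2 scale. In 1911 of the tested genes (15.3%) the 4 libraries of a group did not overlap with the 4 of the other, and 941 of the 1064 changed genes were among these. The split into higher and lower genes depended on the scaling, with 709 higher and 408 lower genes (63.5% higher against 47.3%) when library size alone was used.

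The number of changed genes moved with single libraries. It was 2648 (21.2%; 1288 or 10.3% higher and 1360 or 10.9% lower) without PF 2, 424 without PF 1, 398 without PF 3, 785 without PF 4, and 461, 468, 686 and 477 without PF+MBV 1, 2, 3 and 4. All 1064 genes kept their direction in each of these fits, 1060 of them stayed changed without PF 2, and 317 stayed changed whichever library was left out. When all 16 libraries were fitted together 231 genes (1.79%; 0.767% higher and 1.02% lower) were changed, 223 of them shared with the 1064. Counts in the gene lists below are to be read against 8.53% of all genes with every library, 21.2% without PF 2 and 1.79% in the fit of all 16 libraries. List members beyond the naming rule given with the processing, mostly the other members that passed the test, were named after their values were seen.

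Among the largest falls were genes of hepatocyte identity and of hormone feedback. Onecut1, which encodes the hepatocyte factor HNF6, was at 51.7, 72.1, 69.1 and 25.9 CPM in PF 1 to 4 and 6.83, 4.85, 6.90 and 5.56 CPM in PF+MBV 1 to 4. The PF libraries spread from PF 4, the lowest, to PF 2, the highest, and all lay above every PF+MBV library. The fall was 9.06-fold (log2 -3.18 ± 0.35, edgeR adjusted p = 0.00344). Socs2, a feedback inhibitor of growth hormone signalling, was at 42.8, 35.6, 25.7 and 38.9 CPM in PF 1 to 4 and 6.17, 5.51, 9.02 and 5.50 CPM in PF+MBV 1 to 4. The groups were far apart, with the highest PF+MBV library below the lowest PF library (log2 -2.44 ± 0.20, edgeR adjusted p = 1.61e-04). Tgm1, a transglutaminase that cross-links proteins, had the smallest unadjusted p of all tested genes and stood at 25.1, 15.7, 18.8 and 20.8 CPM in PF 1 to 4 and 3.06, 4.47, 3.93 and 3.86 CPM in PF+MBV 1 to 4. It fell 5.23-fold (log2 -2.39 ± 0.17, edgeR adjusted p = 3.14e-05). Id2, an inhibitor of helix-loop-helix transcription factors, fell from 111 ± 12.5 to 47.2 ± 3.37 CPM (log2 -1.23 ± 0.09, edgeR adjusted p = 3.14e-05), with no overlap between the groups.

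Among the largest rises were a clock factor, a calcium pump and a tubulin. Npas2, a partner of BMAL1 that can take the place of CLOCK, was at 0.0623, 0.256, 0 and 0.317 CPM in PF 1 to 4 and 2.04, 2.10, 1.06 and 1.75 CPM in PF+MBV 1 to 4, so it was near 0 in every PF library and above 1 CPM in every PF+MBV library. Its log2 difference of 3.46 ± 0.55 (edgeR adjusted p = 0.00361) rests on few reads in PF. Atp2b2, a calcium pump of the plasma membrane, was at 0.312, 0.447, 0.458 and 0.570 CPM in PF 1 to 4 and 2.82, 6.45, 3.40 and 3.98 CPM in PF+MBV 1 to 4. All 4 PF+MBV libraries lay above the PF libraries, PF+MBV 2 furthest (log2 3.20 ± 0.33, edgeR adjusted p = 4.09e-04). Tubb2a, a beta-tubulin, was at 17.3, 36.6, 23.1 and 29.5 CPM in PF 1 to 4 and 122, 121, 97.1 and 136 CPM in PF+MBV 1 to 4. It rose 4.48-fold (log2 2.16 ± 0.22, edgeR adjusted p = 0.00183), and PF 2 was the highest PF library. Nr0b2, the nuclear receptor SHP that represses bile acid synthesis, rose from 14.8 ± 4.34 to 50.03 ± 8.73 CPM (log2 1.75 ± 0.21, edgeR adjusted p = 0.00248).

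In the build mm10 (GRCm38), Onecut1 lies on chromosome 9, 74861921 to 74891781, Socs2 on chromosome 10, 95385362 to 95417180, Tgm1 on chromosome 14, 55700009 to 55713926, Npas2 on chromosome 1, 39193731 to 39363236, Atp2b2 on chromosome 6, 113743831 to 114042613 and Tubb2a on chromosome 13, 34074274 to 34078007. These spans cover whole genes, exons and introns together.

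Other large rises were Spon2, a matrix protein that binds pathogens, from 4.89 ± 3.14 to 19.7 ± 4.44 CPM, and Aqp8, a water channel of hepatocytes, from 77.4 ± 34.7 to 266 ± 27.4 CPM. Ppp1r3c, a subunit that directs protein phosphatase 1 to glycogen, rose 3.58-fold. Phf11c, the kinase Dyrk3 and the protease inhibitor Serpinb1a rose 4.02-fold, 3.84-fold and 3.40-fold. Other large falls were Nrep (log2 -2.11), Slc43a1, an amino acid transporter (log2 -1.75), Tchh (log2 -1.71) and Gpcpd1, a phosphodiesterase of choline metabolism (log2 -1.69). Scara5, a ferritin receptor, fell from 46.5 ± 10.98 to 11.6 ± 6.60 CPM, with PF+MBV 1 the lowest library and PF+MBV 4 the highest of its group. C4a, a copy of complement C4, fell from 123 ± 50.9 to 34.97 ± 3.64 CPM, and Cyp21a1, the steroid 21-hydroxylase, from 4.83 ± 1.96 to 1.06 ± 0.369 CPM. The last pair lie close together on chromosome 17, C4a from 34809092 to 34823464 and Cyp21a1 from 34801348 to 34804561. Reads of C4a and its near-identical copy C4b may be split unevenly, so the value of C4a is uncertain.

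Smaller differences with p-values as small were found too. Slc17a4, a urate and phosphate carrier, rose from 33.2 ± 3.44 to 73.3 ± 3.43 CPM (log2 1.14 ± 0.08, edgeR adjusted p = 3.14e-05). Slc30a10, an exporter of manganese and zinc, rose from 21.8 ± 1.93 to 46.5 ± 4.48 CPM, and Cpeb2, which controls translation, from 59.6 ± 10.4 to 156 ± 15.2 CPM. B4galt1, a galactosyltransferase of glycan synthesis, fell from 68.9 ± 2.07 to 38.7 ± 2.38 CPM. In each of these genes the 4 libraries of a group lay within a narrow band with no overlap. Of the 29 genes with the largest changes or smallest p-values, 19 stayed changed whichever library was left out and 22 were changed in the fit of all 16 libraries. Spon2, Phf11c, Ppp1r3c, Aqp8, Serpinb1a, Gsta1, Cish, Scara5, C4a and Gpcpd1 lost the call when at least 1 library other than PF 2 was left out.

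**Figure D2:**
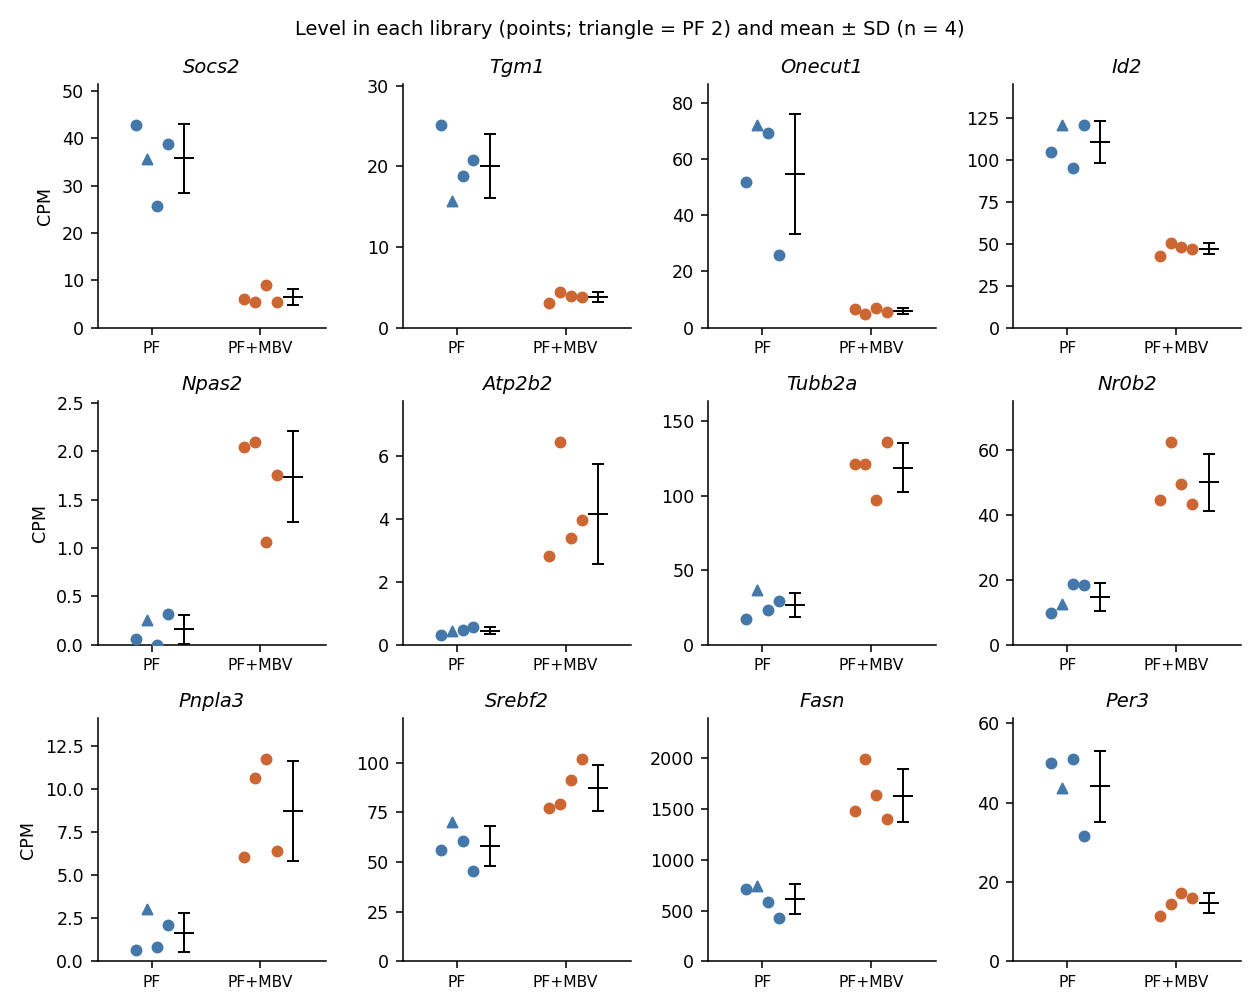
Level in CPM (vertical axis, linear, from 0) of 12 genes in each PF and PF+MBV library, with the group mean and SD (n = 4) beside the points; the triangle is PF 2. In all 12 genes the 4 PF+MBV libraries lie outside the range of the 4 PF libraries, for example Socs2 at 5.50 to 9.02 CPM with MBV and 25.7 to 42.8 CPM without.

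Several enzymes of cholesterol synthesis were higher with MBV. When cell sterol is low, SREBP2 (Srebf2) is cut free from the endoplasmic reticulum and switches on the synthesis enzymes, and the INSIG proteins hold it back. Of 31 measured genes of sterol synthesis and control, 10 rose and 1 fell, against 8.53% changed in either direction among all genes. The median log2 difference over the 31 genes was 0.58, against 0.00 over all tested genes. Acat2, which makes the first intermediate, was at 82.2, 93.7, 69.9 and 78.6 CPM in PF 1 to 4 and 111, 132, 117 and 118 CPM in PF+MBV 1 to 4. PF 2 was the highest PF library and still lay below the PF+MBV libraries (log2 0.56 ± 0.09, edgeR adjusted p = 0.00429). Pmvk, midway in the pathway, rose from 39.2 ± 6.05 to 58.5 ± 6.69 CPM. Hsd17b7, a late enzyme, rose from 95.4 ± 10.6 to 140.2 ± 17.2 CPM, and none of these 3 genes overlapped between the groups. The sterol enzymes Fdps, Sc5d and Dhcr7 rose by 0.55, 0.73 and 0.71 on the log2 scale.

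The regulators of the pathway moved in the same direction as its enzymes. Srebf2 was at 56.1, 70.02, 60.4 and 45.7 CPM in PF 1 to 4 and 76.9, 79.3, 91.4 and 102 CPM in PF+MBV 1 to 4, with no overlap between the groups (log2 0.59 ± 0.13, edgeR adjusted p = 0.0197). Insig1, the sterol-dependent anchor of SREBP, rose from 179 ± 70.02 to 382 ± 48.5 CPM. The member that fell was Abca1, which exports cholesterol from cells, at 239.6, 276, 262 and 243 CPM in PF 1 to 4 and 188, 180.2, 169 and 153 CPM in PF+MBV 1 to 4. The groups did not overlap (log2 -0.56 ± 0.08, edgeR adjusted p = 0.00243).

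PF 2 lay toward PF+MBV in this list. The mean log2 level of the 31 genes, relative to the PF mean, was -0.03, 0.45, -0.21 and -0.20 in PF 1 to 4 and 0.51 to 0.73 in PF+MBV. Hmgcs1, the HMG-CoA synthase, was at 125, 389, 90.7 and 97.8 CPM in PF 1 to 4 and 583, 738, 579 and 655 CPM in PF+MBV 1 to 4. PF 2 lay between the other PF libraries and PF+MBV. The log2 difference was 1.86 ± 0.53 (edgeR adjusted p = 0.0809) with PF 2 and 2.61 (adjusted p = 7.95e-07) without it. Without PF 2, 23 of the 31 genes rose and 1 fell. With other single libraries left out at least 4 rose, and Acat2, Hsd17b7, Pmvk and Abca1 stayed changed in every such fit. In the fit of all 16 libraries 3 rose, among them Srebf2 and Hmgcs1, while Acat2, Hsd17b7, Pmvk and Abca1 were not changed.

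Several enzymes of fatty acid synthesis were higher as well. Of 28 measured genes of fatty acid and triglyceride synthesis 10 rose and none fell, with a median log2 difference of 0.36. Fasn, the fatty acid synthase, was at 715, 743, 584 and 425 CPM in PF 1 to 4 and 1481, 1995, 1640.3 and 1406 CPM in PF+MBV 1 to 4. Every PF+MBV library held more than the highest PF library, and the rise was 2.64-fold (log2 1.40 ± 0.18, edgeR adjusted p = 0.00336). Elovl5, which elongates polyunsaturated fatty acids, was at 900.4, 922, 661 and 796 CPM in PF 1 to 4 and 1585, 1704, 1648 and 1503 CPM in PF+MBV 1 to 4. The PF+MBV libraries lay far above all PF libraries (log2 0.97 ± 0.10, edgeR adjusted p = 4.09e-04). Me1, which supplies NADPH for the pathway, rose from 306 ± 61.7 to 521 ± 21.1 CPM. Pklr, the liver pyruvate kinase, rose from 336 ± 36.6 to 487 ± 58.7 CPM, and Insig2, a further SREBP anchor, from 263 ± 60.04 to 459 ± 22.6 CPM.

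Pnpla3, a lipid droplet hydrolase that SREBP1c induces, was at 0.686, 3.07, 0.864 and 2.09 CPM in PF 1 to 4 and 6.05, 10.6, 11.8 and 6.43 CPM in PF+MBV 1 to 4. It was higher in every PF+MBV library than in any PF library (log2 2.40 ± 0.44, edgeR adjusted p = 0.0146). Gpam, the first acyltransferase of triglyceride synthesis, rose from 174 ± 41.4 to 321 ± 37.6 CPM. Acly and Acaca, which make cytosolic acetyl-CoA and malonyl-CoA, rose by 0.88 and 0.47 on the log2 scale, and Mogat1 by 1.08. Scd1, the desaturase that makes oleate, was at 16842 ± 3772 CPM without and 22588 ± 2109 CPM with MBV and did not pass the test (log2 0.42 ± 0.14, edgeR adjusted p = 0.0874). Srebf1, the gene of SREBP1, was at 116, 309, 121 and 85.7 CPM in PF 1 to 4 and 227, 226, 215 and 224 CPM in PF+MBV 1 to 4. PF 2 was above all other libraries there, and the difference was 0.50 ± 0.40 with it (adjusted p = 0.482) and 1.05 without it (adjusted p = 2.60e-05). Without PF 2, 16 of the 28 genes rose. At least 7 rose with any single library left out, and 4 rose in the fit of all 16 libraries.

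The 2 rising lipid genes whose promoters hold the 8-letter SREBP site TCACNCCA are shown here because they rose together with other members of their lists. The stretches are RefSeq promoter sequence of the build GRCm38.p6, they end before the annotated gene start, and the capitals mark the match. Srebf2 is on the plus strand at chr15:82147062-82147159 with the match starting 162 bases before the gene start, and Gpam on the minus strand at chr19:55127351-55127448 with the match starting 165 bases before it.
Srebf2: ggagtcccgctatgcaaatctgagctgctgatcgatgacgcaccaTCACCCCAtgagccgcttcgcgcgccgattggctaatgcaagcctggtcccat
Gpam: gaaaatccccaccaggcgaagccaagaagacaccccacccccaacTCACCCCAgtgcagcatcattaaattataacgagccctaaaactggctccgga
Windows reached from 250 bases before to 50 bases after a gene start and were searched on both strands. The site was in 3 of 27 windows of the sterol list (11.1%), those of Hmgcs1, Msmo1 and Srebf2, and in 2 of 34 windows of the fatty acid list (5.88%), those of Gpam and Mlxipl. It was in 1433 of all 32851 windows (4.36%). Of the list members with the site, Srebf2 and Gpam were changed with every library included, and Hmgcs1, Msmo1 and Mlxipl were not. A match describes the letters of the window and does not show that a factor binds there.

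The growth hormone targets Socs2, Cish, Igf1 and Igfals were lower. Growth hormone acts in hepatocytes through its receptor (Ghr), the kinase JAK2 and the factor STAT5B, which switches on Igf1, Igfals and the inhibitors Socs2 and Cish. Of 16 measured genes of this signalling 6 fell and 1 rose, and 7 fell and 3 rose without PF 2. Beside Socs2, the inhibitor Cish fell from 30.6 ± 18.1 to 6.82 ± 2.45 CPM, with PF 2 the highest library. Igf1, insulin-like growth factor 1, was at 692, 648, 633 and 606 CPM in PF 1 to 4 and 408, 478, 475 and 405 CPM in PF+MBV 1 to 4. All PF+MBV libraries were lower than all PF libraries (log2 -0.55 ± 0.08, edgeR adjusted p = 0.00263). Its plasma carrier Igfals fell from 102 ± 15.6 to 65.2 ± 3.92 CPM and the binding protein Igfbp2 from 329 ± 25.1 to 225 ± 24.7 CPM. Another binding protein, Igfbp3, was not lower and did not pass the test (log2 0.33, edgeR adjusted p = 0.16).

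The transcription factors of the pathway moved in opposite directions. Stat3, which carries interleukin 6 signals, fell from 188 ± 42.2 to 125 ± 4.91 CPM, and Stat5b rose from 55.9 ± 5.77 to 77.6 ± 13.9 CPM (edgeR adjusted p = 0.0295 and 0.0308). Ghr was at 565 ± 67.3 CPM without and 644 ± 22.1 CPM with MBV and did not pass the test (log2 0.19 ± 0.09, adjusted p = 0.185). Socs2, Igf1, Igfals and Igfbp2 stayed changed whichever library was left out. Cish, Stat3 and Stat5b did not, with adjusted p-values above 0.05 in at least 1 fit, and 2 genes of the list, Socs2 and Cish, fell in the fit of all 16 libraries.

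Genes that differ between male and female mouse liver through the pulses of growth hormone were measured as well. Of 27 male-biased genes, 2 fell, none rose, and 26 had a negative log2 difference, with a median of -0.60. Among all genes 8.53% were changed and 4.5% were lower. Without PF 2, 6 fell and 1 rose, and the median was -0.41. The mean log2 level of the list, relative to the PF mean, was 0.02, 0.69, -0.08 and -0.62 in PF 1 to 4 and -0.99 to -0.30 in PF+MBV, so PF 4 lay inside the PF+MBV range and PF 2 was the highest library. The complement factor C8b fell from 316 ± 57.3 to 199.8 ± 32.7 CPM and the major urinary protein Mup1 from 9.37 ± 4.48 to 3.13 ± 1.15 CPM. Mup genes are near-identical copies, so Mup1 is uncertain, and both calls were lost when some single libraries were left out. Egfr, a male-biased growth factor receptor, was at 894, 413, 555 and 492 CPM in PF 1 to 4 and 224, 286, 359 and 180.4 CPM in PF+MBV 1 to 4, where the groups did not overlap but PF 1 was far above the rest (log2 -1.17 ± 0.30, edgeR adjusted p = 0.0606). Of 11 measured female-biased genes 2 rose and 1 fell, while 4 had a positive log2 difference and the median was -0.51. Without PF 2, 2 rose and 5 fell, with a median of -0.67. The mean log2 level of this list was lowest of all in PF 2, at -0.83, against 0.10 to 0.49 in the other PF libraries and -0.49 to -0.04 in PF+MBV. Abcd2, a peroxisomal transporter of fatty acids, rose from 20.1 ± 2.74 to 42.3 ± 8.64 CPM (edgeR adjusted p = 0.00187), Cyp2a22, which has near-identical copies, rose from 4.02 ± 0.971 to 9.32 ± 3.70 CPM, and the oestrogen sulfotransferase Sult1e1 fell from 1.39 ± 0.239 to 0.617 ± 0.195 CPM. The filter on low counts kept 11 of 26 genes of the female-biased list, so the others were not tested.

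The circadian genes Per2 and Per3 were lower, and Arntl and Npas2 higher. CLOCK or NPAS2 pairs with BMAL1 (Arntl) to switch on Per, Cry, Rev-erb (Nr1d1, Nr1d2) and the output factors Dbp and Tef through E-boxes, and the PER and CRY proteins shut this off. Of 27 measured clock genes 7 fell and 3 rose. Per3 was at 50.1, 43.7, 51.1 and 31.6 CPM in PF 1 to 4 and 11.5, 14.4, 17.2 and 16.1 CPM in PF+MBV 1 to 4, with no overlap (log2 -1.57 ± 0.16, edgeR adjusted p = 6.04e-04). Per2 was at 63.6, 34.9, 70.6 and 54.4 CPM in PF 1 to 4 and 22.8, 22.9, 23.1 and 22.8 CPM in PF+MBV 1 to 4. The 4 PF+MBV libraries were nearly equal, and PF 2 was the lowest of the PF libraries (log2 -1.29 ± 0.18, edgeR adjusted p = 0.00434). Wee1, a cell cycle kinase under clock control, fell from 21.1 ± 3.69 to 7.57 ± 1.73 CPM and Tef from 227 ± 12.4 to 146 ± 21.3 CPM.

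Arntl was at 4.61, 4.41, 5.69 and 6.40 CPM in PF 1 to 4 and 12.8, 11.97, 9.55 and 8.66 CPM in PF+MBV 1 to 4, so each PF+MBV library lay above the PF libraries (log2 1.02 ± 0.17, edgeR adjusted p = 0.00434). Usp2, a deubiquitinase of clock output, fell from 71.3 ± 18.5 to 25.8 ± 9.23 CPM. Nr1d2 fell from 124 ± 3.81 to 105 ± 4.95 CPM, and Tsc22d3, which answers to both clock and glucocorticoids, rose from 109 ± 33.8 to 207 ± 31.2 CPM. Per1 was at 57.2 ± 14.1 CPM without and 60.04 ± 10.9 CPM with MBV (log2 0.07 ± 0.20, adjusted p = 0.86). Clock itself was at 48.7 ± 2.75 CPM without and 51.3 ± 3.999 CPM with MBV (log2 0.08 ± 0.08, adjusted p = 0.582), and Dbp was at 44.1 ± 15.3 CPM without and 25.7 ± 3.81 CPM with MBV (log2 -0.78 ± 0.23, adjusted p = 0.0735). The values of Nr1d1 and Cry1 depended on PF 2. Nr1d1 was at 57.3, 128, 41.4 and 42.8 CPM in PF 1 to 4 and 119, 145, 136 and 123 CPM in PF+MBV 1 to 4. Cry1 was at 20.1, 8.56, 20.6 and 20.3 CPM in PF 1 to 4 and 9.29, 10.97, 7.80 and 5.96 CPM in PF+MBV 1 to 4. In both genes PF 2 lay with the PF+MBV libraries. With it the log2 differences were 0.96 ± 0.38 (adjusted p = 0.171) and -1.03 ± 0.29 (adjusted p = 0.063), and without it the log2 differences were 1.47 (adjusted p = 9.53e-06) and -1.26 (adjusted p = 1.48e-04).

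Per3, Wee1, Tef, Npas2, Arntl and Per2 stayed changed whichever library was left out, and 12 genes fell and 4 rose without PF 2. In the fit of all 16 libraries 4 fell and 1 rose. The promoter of Tef is shown for its E-box CACGTG, the site of the CLOCK and BMAL1 pair, in capitals. It is RefSeq sequence of GRCm38.p6 from chr15:81802501-81802596 on the plus strand, and the match starts 127 bases before the gene start.
Tef: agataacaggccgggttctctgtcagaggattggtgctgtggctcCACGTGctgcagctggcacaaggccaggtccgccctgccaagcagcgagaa
The E-box reads the same on both strands. It was in 7 of 30 windows of the clock list (23.3%) and in 2349 of all 32851 windows (7.15%). The 7 windows belong to Bhlhe41, Ciart, Cry1, Lonrf3, Per1 and Tef, of which Tef alone was changed with every library included. The share therefore describes a list drawn up as clock genes and not the changed genes. Tef has the motif in the windows of both its annotated starts.

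Several genes of glutathione and quinone defence rose. NRF2 (Nfe2l2) is freed by electrophiles and binds the antioxidant response element of enzymes that make glutathione, NADPH and conjugates. Of 31 measured targets and glutathione genes 12 rose and none fell, with a median log2 difference of 0.25. Gclc, the rate-limiting enzyme of glutathione synthesis, was at 106, 216, 126 and 109 CPM in PF 1 to 4 and 513, 355, 322 and 399.7 CPM in PF+MBV 1 to 4. PF 2 was the highest PF library, and PF+MBV 1 the highest of all (log2 1.51 ± 0.27, edgeR adjusted p = 0.0183). Srxn1, which repairs oxidised peroxiredoxins, was at 28.1, 28.8, 28.7 and 36.5 CPM in PF 1 to 4 and 53.5, 45.6, 49.1 and 63.5 CPM in PF+MBV 1 to 4, with no overlap (log2 0.79 ± 0.12, edgeR adjusted p = 0.00248). The NADPH enzymes Pgd and Tkt rose from 37.4 ± 8.79 to 68.3 ± 8.03 CPM and from 99.2 ± 5.000 to 134 ± 14.2 CPM, and Gsr, the glutathione reductase, from 54.7 ± 6.65 to 69.96 ± 5.03 CPM.

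Several conjugating enzymes rose too. Nqo1, the quinone reductase, was at 2.49, 4.09, 3.56 and 3.55 CPM in PF 1 to 4 and 11.6, 4.25, 8.06 and 11.9 CPM in PF+MBV 1 to 4. PF+MBV 2 was close to the PF libraries and the other 3 were higher (log2 1.38 ± 0.30, edgeR adjusted p = 0.0237). The glutathione transferases Gstm1, Gstm4 and Gsta1 rose by 0.79, 0.98 and 2.48 on the log2 scale, Gsta1 from 0.319 ± 0.0828 to 1.80 ± 1.11 CPM. These transferases have near-identical copies that share reads, and their single values are uncertain. Ephx1, the microsomal epoxide hydrolase, rose from 239.7 ± 39.9 to 374 ± 82.7 CPM and Ugdh, which makes the sugar for glucuronidation, from 124 ± 16.1 to 183 ± 28.4 CPM. Nfe2l2 itself was at 70.2 ± 1.13 CPM without and 77.8 ± 5.94 CPM with MBV and did not pass the test (adjusted p = 0.211). PF+MBV 1 and 4 were the highest libraries of this list, with mean levels 0.54 and 0.64 above the PF mean on the log2 scale, against 0.30 and 0.24 in PF+MBV 2 and 3. Srxn1, Me1, Gstm1, Pgd and Tkt stayed changed whichever library was left out, but were not changed in the fit of all 16 libraries. In that fit 2 genes of the list rose, Gclc and Nqo1, which lost the call when some single libraries were left out.

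The promoter of Ugdh is shown because it holds the antioxidant response element TGACNNNGC on both strands, in capitals. It is RefSeq sequence of GRCm38.p6 from chr5:65435921-65436019, read on the minus strand, with the first match starting 132 bases before the gene start.
Ugdh: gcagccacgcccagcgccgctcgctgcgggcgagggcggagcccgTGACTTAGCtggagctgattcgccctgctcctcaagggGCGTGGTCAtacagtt
The element was in 10 of 33 windows of the list (30.3%) and in 4071 of all 32851 windows (12.4%). Of the members with it, Srxn1, Pgd, Me1 and Ugdh were changed, and G6pdx, Gclm, Gsta3, Nfe2l2, Prdx1 and Txnrd1 were not. The list was drawn up as NRF2 targets and glutathione genes, so its share of matches does not speak to MBV.

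Targets of other xenobiotic receptors changed in both directions. Of 24 measured genes under the receptors CAR, PXR and AHR, 3 rose and 2 fell, and 3 rose and 5 fell without PF 2. Ahr, the dioxin receptor, was at 53.9, 41.6, 53.03 and 53.98 CPM in PF 1 to 4 and 95.4, 78.9, 94.2 and 79.6 CPM in PF+MBV 1 to 4. The groups did not overlap (log2 0.78 ± 0.10, edgeR adjusted p = 0.00125). Its target Tiparp rose from 6.69 ± 0.585 to 9.76 ± 1.57 CPM and the conjugate exporter Abcc3 from 284 ± 22.4 to 423 ± 95.2 CPM, while Cyp1a1, the best known AHR target, was at 0.949 ± 0.553 CPM without and 1.30 ± 0.298 CPM with MBV (adjusted p = 0.485). The carboxylesterase Ces2a fell from 217 ± 11.4 to 175 ± 14.7 CPM. Cyp3a11 was at 1259.8 ± 107 CPM without and 1234 ± 129 CPM with MBV (adjusted p = 0.867) and Cyp2b10 ranged from 0.575 to 24.6 CPM in PF and from 2.15 to 10.5 CPM in PF+MBV. Of 13 measured enzymes of alcohol and aldehyde oxidation 1 rose, Aldh1a1, from 1142 ± 56.9 to 1404 ± 156 CPM (edgeR adjusted p = 0.0487). Without PF 2, 5 rose and 1 fell, and in DESeq2 3 rose and 1 fell. None of the list was changed in limma voom or in the fit of all 16 libraries. Aldh1a1 also lost the call when some single libraries were left out. Cyp2e1, the cytochrome of ethanol oxidation, was at 9549.5 ± 1686 CPM without and 7816 ± 761 CPM with MBV (log2 -0.29 ± 0.12, adjusted p = 0.16), and Adh1 and Aldh2 had log2 differences of -0.06 and 0.05.

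**Figure D3:**
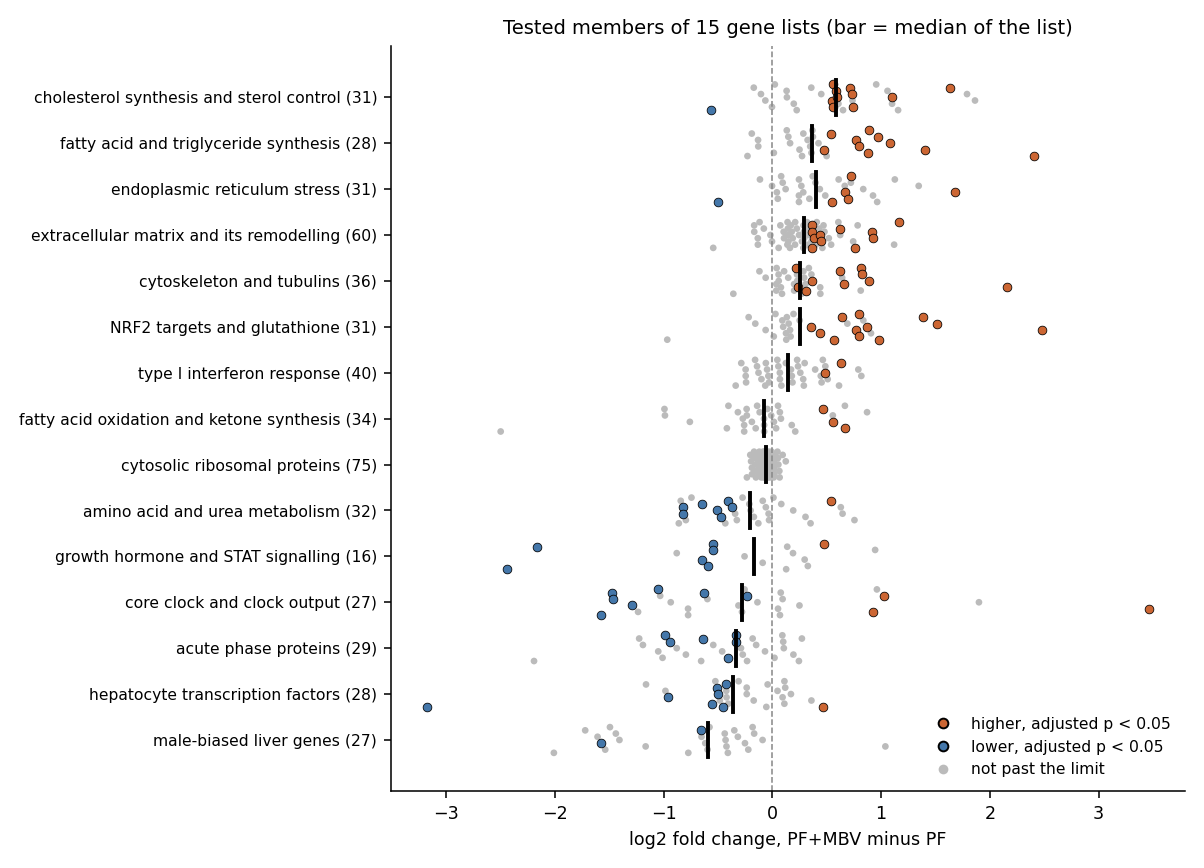
Log2 fold change of PF+MBV minus PF (horizontal axis) for every tested member of 15 gene lists, with the number of members in brackets; coloured points passed the test and the bar is the median of the list. The medians run from -0.60 for male-biased genes to 0.58 for cholesterol genes, and cytosolic ribosomal proteins lie around -0.06 with none past the limit.

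Several plasma proteins that hepatocytes secrete were lower. Acute phase proteins rise in infection through STAT3 and C/EBP factors, and complement and clotting factors are made in the same cells. Of 29 measured acute phase genes 6 fell and none rose, and the median log2 difference was -0.34. Serpina3k, a protease inhibitor, was at 11806, 12032, 13611 and 12786 CPM in PF 1 to 4 and 8503, 8262, 7869 and 7708 CPM in PF+MBV 1 to 4. PF and PF+MBV were far apart relative to their spread (log2 -0.64 ± 0.07, edgeR adjusted p = 6.04e-04). Steap4, a metalloreductase induced by inflammation, fell from 276 ± 37.1 to 144 ± 13.4 CPM. The orosomucoid Orm1 fell from 392 ± 34.7 to 311 ± 6.08 CPM and the fibrinogen chain Fgb from 4253 ± 558 to 3371 ± 209.7 CPM. The remaining members that fell were Itih3, from 934 ± 126 to 702 ± 25.3 CPM, and the serum amyloid Saa4, from 540.2 ± 160.5 to 273 ± 48.2 CPM. Saa1, a serum amyloid, was at 134, 32.01, 144 and 261 CPM in PF 1 to 4 and 30.9, 26.97, 26.3 and 40.8 CPM in PF+MBV 1 to 4. PF 2 lay with the PF+MBV libraries, and the log2 difference was -2.19 ± 0.60 (edgeR adjusted p = 0.0745) with it and -2.53 (adjusted p = 0.00314) without it. Without PF 2, 16 of the 29 genes fell. Steap4 and Serpina3k stayed changed in every fit that left out a single library, and none of the list was changed in the fit of all 16 libraries.

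Of 36 measured complement and coagulation genes 4 fell and 1 rose, against 8.53% changed among all genes. Without PF 2, 9 fell and 1 rose, and in the fit of all 16 libraries 1 fell. Complement C2 fell from 122 ± 10.1 to 86.6 ± 5.24 CPM, and the clotting factors F7 and F10 from 107 ± 7.02 to 80.8 ± 4.09 CPM and from 380.0 ± 28.7 to 312 ± 9.77 CPM. C2 and F7 stayed changed whichever library was left out.

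Several enzymes of amino acid breakdown and the urea cycle were lower. Of 32 measured genes 7 fell and 1 rose, with a median log2 difference of -0.21. Cps1, which feeds ammonia into the urea cycle, was at 9047, 5715, 9038 and 7806 CPM in PF 1 to 4 and 3980.5, 4396, 5374 and 4152 CPM in PF+MBV 1 to 4. PF 2 was the lowest PF library (log2 -0.82 ± 0.15, edgeR adjusted p = 0.00987). Hal, which breaks down histidine, fell from 313 ± 31.98 to 220.2 ± 17.1 CPM, Cth of cysteine synthesis from 413 ± 43.7 to 297 ± 8.38 CPM and the liver glutaminase Gls2 from 390.4 ± 21.9 to 294 ± 25.5 CPM. Ahcy of the methionine cycle fell by 0.65 and the glutamate carrier Slc1a2 by 0.37 on the log2 scale. The glycine decarboxylase Gldc rose from 176 ± 28.1 to 256 ± 19.4 CPM. Of the genes named here, all but Ahcy stayed changed whichever library was left out, 15 of the 32 genes fell and 4 rose without PF 2, and in the fit of all 16 libraries none fell and 1, Gldc, rose.

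Several transcription factors of hepatocytes were lower as well. HNF, C/EBP and GATA factors hold the hepatocyte programme in place. Of 28 measured factors 7 fell and 1 rose, and the median log2 difference was -0.36. Beside Onecut1, its relative Onecut2 was at 119, 104, 128 and 119 CPM in PF 1 to 4 and 83.1, 84.8, 79.9 and 71.8 CPM in PF+MBV 1 to 4. All PF+MBV libraries were below all PF libraries (log2 -0.56 ± 0.08, edgeR adjusted p = 0.00248). Cebpa, a factor of metabolic genes, fell from 440.1 ± 22.6 to 327 ± 17.8 CPM, and Gata4 from 21.9 ± 1.14 to 15.96 ± 0.807 CPM. Prox1, which guides liver development, fell from 83.2 ± 23.98 to 42.6 ± 6.76 CPM. Nr2f2 fell from 33.7 ± 3.24 to 23.8 ± 4.17 CPM. Klf15, a factor of the fasting liver, rose from 179 ± 24.6 to 248 ± 21.3 CPM. Hnf4a was at 852 ± 120.1 CPM without and 723 ± 40.3 CPM with MBV and did not pass the test (log2 -0.24 ± 0.10, adjusted p = 0.152). Onecut1, Onecut2, Cebpa and Gata4 stayed changed whichever library was left out. Without PF 2, 13 of the factors fell and 2 rose, and in the fit of all 16 libraries 2 fell.

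Hepatocyte markers were counted beside these groups. Of 14 markers 4 fell, among them Cps1, Fgb and Ahsg, and none rose, and 6 fell without PF 2. Their summed level was 125575 to 163000 CPM in PF and 117501 to 136467 CPM in PF+MBV, and Alb was at 86309 ± 12258 CPM without and 69823 ± 5858 CPM with MBV (log2 -0.31 ± 0.10, edgeR adjusted p = 0.0857). Their part in the lower secreted and metabolic genes was not tested.

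**Figure D4:**
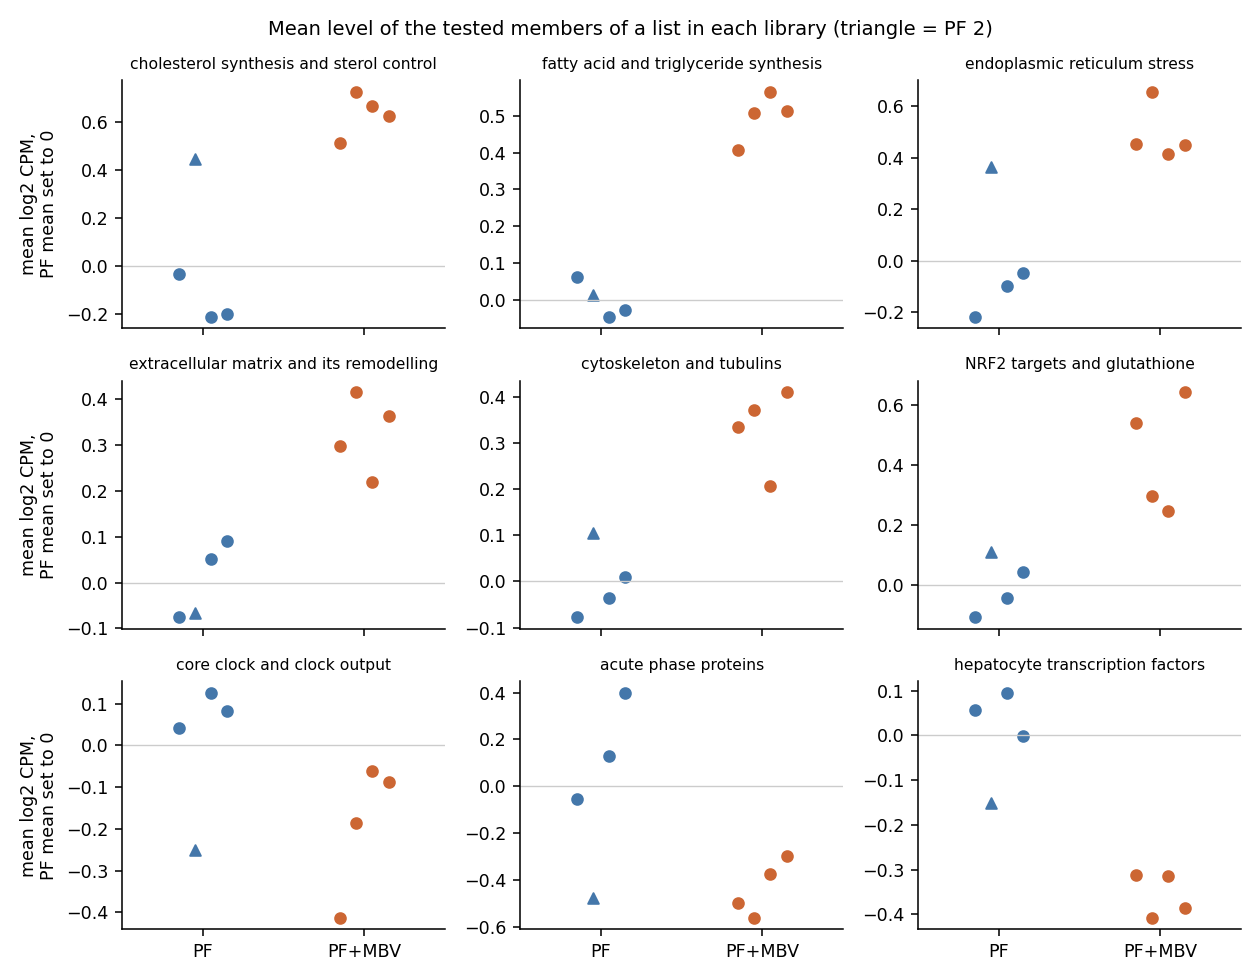
Mean log2 CPM of the tested members of 9 lists in each library (vertical axis, PF mean set to 0), PF at left and PF+MBV at right; the triangle is PF 2. In the cholesterol list PF 2 lies at 0.45, close to the PF+MBV libraries at 0.51 to 0.73, and in the acute phase and clock lists it lies within the PF+MBV range, whereas in the fatty acid list it lies at 0.01 with the other PF libraries.

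Several tubulins and other cytoskeletal genes rose. Microtubules are built of alpha and beta tubulin pairs, and tubulin RNA is degraded when free tubulin is in excess. Of 36 measured cytoskeletal genes 10 rose and none fell, with a median log2 difference of 0.25. Beside Tubb2a, the beta-tubulin Tubb4b was at 42.3, 67.4, 48.6 and 53.9 CPM in PF 1 to 4 and 96.7, 89.9, 93.6 and 95.6 CPM in PF+MBV 1 to 4. The PF+MBV libraries were nearly equal, and PF 2 was the highest PF library (log2 0.83 ± 0.12, edgeR adjusted p = 0.00243). The alpha-tubulins Tuba1c, Tuba1a, Tuba1b and Tuba4a rose by 0.66, 0.89, 0.81 and 0.62 on the log2 scale. Tubb5 did not overlap between the groups but did not pass the test (log2 0.81 ± 0.24, adjusted p = 0.0739). Beta-actin (Actb) rose from 302 ± 29.4 to 374 ± 17.4 CPM, and the actin-binding Tpm3, Tpm4 and Actn4 rose by 0.24, 0.37 and 0.22. Tubulin genes are similar in sequence, so reads between copies may be split unevenly. Tubb2a, Tuba1c and Tubb4b stayed changed whichever library was left out. In the fit of all 16 libraries 3 of the 36 genes rose, Tubb2a, Tuba1a and Tubb4b, and Tuba1c was not changed.

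Several extracellular matrix genes were higher. Fibrillar and basement membrane collagens, nidogens and laminins are made mainly by stellate, endothelial and mural cells of the liver. Of 60 measured matrix genes 11 rose and none fell, and the median log2 difference was 0.29. Col3a1, a fibrillar collagen, was at 13.6, 17.1, 16.9 and 21.3 CPM in PF 1 to 4 and 26.6, 39.8, 26.5 and 37.1 CPM in PF+MBV 1 to 4. Every PF+MBV library exceeded the highest PF library (log2 0.92 ± 0.17, edgeR adjusted p = 0.0091). The nidogens Nid2 and Nid1 rose from 3.63 ± 0.546 to 6.89 ± 1.28 CPM and from 21.1 ± 2.75 to 27.5 ± 1.63 CPM, and elastin (Eln) from 1.90 ± 0.110 to 4.26 ± 1.67 CPM. Col14a1, Col15a1, Col4a1, the laminin chain Lamb2, the collagen chaperone Serpinh1, Sparc and Efemp1 rose by 0.36 to 0.76 on the log2 scale. Col1a1, the chief collagen of scars, was at 8.22 ± 3.22 CPM without and 11.4 ± 2.86 CPM with MBV and did not pass the test (log2 0.47 ± 0.28, adjusted p = 0.324).

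Col3a1 and Nid2 stayed changed whichever library was left out, 17 genes rose and 1 fell without PF 2, and none was changed in the fit of all 16 libraries. Among 18 stellate cell and fibroblast markers 1 rose, Col3a1, 3 rose without PF 2, and their summed level was 454 to 487 CPM in PF and 515 to 556 CPM in PF+MBV. The 20 markers of sinusoidal endothelial cells summed to 1065 to 1200.1 CPM in PF and 1099.6 to 1219.7 CPM in PF+MBV. The part of either cell type in the matrix result was not tested. Acta2, a marker of activated stellate cells, was at 2.20 ± 0.610 CPM without and 2.59 ± 1.34 CPM with MBV (adjusted p = 0.712). Of 35 adhesion genes 3 rose and 1 fell, and 9 rose and 1 fell without PF 2. The tight junction gene Cldn2 was at 79.9, 94.5, 73.3 and 96.7 CPM in PF 1 to 4 and 131, 132, 129 and 128 CPM in PF+MBV 1 to 4, with the 4 PF+MBV libraries nearly equal (log2 0.60 ± 0.09, edgeR adjusted p = 0.00266). The integrins Itga8 and Itgb5 rose from 6.76 ± 1.25 to 11.5 ± 1.15 CPM and from 67.2 ± 9.84 to 91.1 ± 6.40 CPM, and the gap junction gene Gjb2 fell from 374 ± 42.7 to 293 ± 13.7 CPM.

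Stress genes rose in part. In the endoplasmic reticulum stress list 5 of 31 measured genes rose and 1 fell, with a median log2 difference of 0.40. Trib3, an ATF4 target that restrains AKT, was at 3.24, 4.92, 4.47 and 2.85 CPM in PF 1 to 4 and 11.7, 10.1, 11.8 and 16.3 CPM in PF+MBV 1 to 4. Each PF+MBV library lay above 10 CPM and each PF library below 5 CPM (log2 1.68 ± 0.20, edgeR adjusted p = 6.04e-04). Atf5, Ddit3, Herpud1 and the chaperone Calr rose by 0.72, 0.69, 0.67 and 0.55 on the log2 scale, and Xbp1 fell from 199 ± 34.6 to 141 ± 11.9 CPM. Hspa5, the chaperone BiP, was at 445, 818, 474 and 608 CPM in PF 1 to 4 and 787, 1179, 881 and 729 CPM in PF+MBV 1 to 4. PF 2 was above 2 of the PF+MBV libraries (log2 0.61 ± 0.22, adjusted p = 0.131, and 0.81, adjusted p = 0.0183, without PF 2). Without PF 2, 21 of the 31 genes rose and 1 fell, Trib3 and Atf5 stayed changed whichever library was left out, and none was changed in the fit of all 16 libraries.

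Of 21 measured p53 targets 4 rose and none fell. They were Bbc3, which promotes apoptosis, from 5.05 ± 0.816 to 8.26 ± 0.861 CPM, the metabolic stress sensors Sesn1 and Sesn2 from 15.1 ± 0.640 to 20.1 ± 1.26 CPM and from 7.61 ± 1.32 to 12.7 ± 2.72 CPM, and Ccng1 from 36.5 ± 1.87 to 46.00 ± 2.50 CPM. Cdkn1a, the p21 inhibitor of the cell cycle, was at 7.73, 4.92, 13.02 and 22.7 CPM in PF 1 to 4 and 24.7, 30.6, 60.8 and 64.7 CPM in PF+MBV 1 to 4. The groups did not overlap, but the spread left it outside the test (log2 1.90 ± 0.55, edgeR adjusted p = 0.0858). Each of the 4 p53 calls was lost when some single libraries were left out. Of 25 glucocorticoid targets 4 rose and 1 fell, with 4 and 3 without PF 2, led by Arrdc2 at 7.04, 11.6, 7.27 and 7.79 CPM in PF 1 to 4 and 22.95, 18.5, 26.9 and 23.3 CPM in PF+MBV 1 to 4. All PF+MBV libraries lay well above the PF libraries (log2 1.45 ± 0.17, edgeR adjusted p = 6.04e-04). Zbtb16 rose from 52.1 ± 13.2 to 99.4 ± 7.42 CPM and the kinase Sgk1 from 23.98 ± 3.79 to 34.98 ± 5.32 CPM. Of 34 cell cycle genes 1 rose, Mcm2, and 2 fell, Ccne1 and E2f8, while 4 rose and 2 fell without PF 2.

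Glucose genes changed in both directions. Of 29 measured genes of glucose, glycogen and insulin response 6 rose and 1 fell, with a median log2 difference of 0.09. Without PF 2, 7 rose and 6 fell and the median was -0.06, and none was changed in the fit of all 16 libraries. Gys2, the liver glycogen synthase, was at 403, 272, 445 and 377 CPM in PF 1 to 4 and 201, 199.9, 233 and 227 CPM in PF+MBV 1 to 4. PF 2 was the lowest PF library and lay above the PF+MBV libraries (log2 -0.80 ± 0.13, edgeR adjusted p = 0.00567). Pygl, the glycogen phosphorylase, rose from 580.1 ± 19.5 to 716 ± 31.9 CPM. Gckr, a nuclear regulator of glucose use, rose from 195 ± 8.57 to 254 ± 11.9 CPM. The fasting factors Foxo3 and Ppargc1a rose from 25.8 ± 3.29 to 34.98 ± 4.17 CPM and from 18.9 ± 3.32 to 29.9 ± 5.63 CPM. Gys2, Gckr and Pklr stayed changed whichever library was left out.

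Of 34 measured genes of fatty acid oxidation and ketone synthesis 3 rose, Bdh1, Ppargc1a and Acaa1b, and none fell. Bdh1, which makes 3-hydroxybutyrate, rose from 219.8 ± 33.7 to 323 ± 14.3 CPM. Without PF 2, 11 genes of this list fell, among them Cpt1a, a carnitine palmitoyltransferase. It was at 1081 ± 156 CPM without and 903 ± 85.7 CPM with MBV over all libraries (log2 -0.26 ± 0.11, adjusted p = 0.142, and -0.35, adjusted p = 0.0118, without PF 2). Of 25 lipid droplet genes the droplet protein Plin3 rose from 38.2 ± 5.56 to 57.7 ± 5.09 CPM, and the lipases Pnpla2 and Lipe fell from 183 ± 45.4 to 106 ± 15.8 CPM and from 16.5 ± 3.57 to 10.1 ± 1.58 CPM. Without PF 2, 3 of these genes rose and 4 fell. None of 18 lipoprotein genes passed edgeR's adjusted p of 0.05, while 3 had an unadjusted p under 0.05 and 1 passed in DESeq2 and in limma voom.

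Of 25 measured bile acid genes 3 rose, Nr0b2, Abcc3 and the phospholipid exporter Abcb4, and 1 fell, Onecut1, against 8.53% changed among all genes. Without PF 2, 7 rose and 3 fell, and in the fit of all 16 libraries 1 fell. Cyp7a1, which opens the main route of bile acid synthesis, was at 535, 152, 409 and 305 CPM in PF 1 to 4 and 123, 130.3, 153 and 85.97 CPM in PF+MBV 1 to 4. PF 2 lay within the range of the PF+MBV libraries (log2 -1.51 ± 0.40, edgeR adjusted p = 0.0641, and -1.76, adjusted p = 0.00547, without PF 2). Abcb11, the bile salt export pump, was at 551 ± 137 CPM without and 757 ± 59.9 CPM with MBV (log2 0.46 ± 0.15, adjusted p = 0.0843), and Nr1h4, the bile acid receptor FXR, at 155 ± 30.1 CPM without and 117 ± 4.45 CPM with MBV (log2 -0.41 ± 0.12, adjusted p = 0.0581).

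Zinc transporters changed while metallothioneins varied within the PF group. Slc30a1, which exports zinc and is induced by it, was at 70.8, 51.2, 65.6 and 65.3 CPM in PF 1 to 4 and 31.3, 30.99, 36.7 and 32.8 CPM in PF+MBV 1 to 4. The groups did not overlap (log2 -0.94 ± 0.10, edgeR adjusted p = 4.97e-04). The importer Slc39a8 rose from 23.98 ± 1.69 to 34.00 ± 1.75 CPM, and Slc39a14, which imports zinc and iron in inflammation, fell from 488 ± 124 to 295 ± 33.5 CPM. Mt1, a metallothionein, was at 386, 41.8, 487 and 708 CPM in PF 1 to 4 and 77.5, 54.98, 182 and 142 CPM in PF+MBV 1 to 4. PF 2 was the lowest library of all and the other PF libraries were above every PF+MBV library (log2 -1.83 ± 0.84, edgeR adjusted p = 0.227, and -2.21, adjusted p = 0.0312, without PF 2). Of 30 measured genes of metallothioneins, zinc and iron 2 rose and 3 fell, and 6 rose and 6 fell without PF 2.

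Genes of inflammation and interferon changed in about the same share as all genes, or in a smaller share, with every library included. Of 32 measured cytokine, chemokine and NF-kB feedback genes 2 rose and 1 fell, and 6 rose and 4 fell without PF 2. The feedback inhibitors Tnfaip3 and Nfkbia rose from 3.39 ± 0.934 to 6.72 ± 1.09 CPM and from 26.4 ± 2.62 to 34.04 ± 2.21 CPM, and the neutrophil chemokine Cxcl1 fell from 7.79 ± 3.25 to 3.48 ± 0.861 CPM. Of 40 type I interferon genes 2 rose, Rsad2, an antiviral enzyme, from 9.38 ± 1.604 to 14.5 ± 2.22 CPM, and Samd9l from 13.8 ± 1.86 to 19.3 ± 1.99 CPM. Without PF 2, 8 rose and 1 fell. Among the cytokine and type I interferon lists Tnfaip3 alone stayed changed whichever library was left out. No member of either list was changed in the fit of all 16 libraries, and Cxcl1 also lost the call in limma voom. Of 19 interferon gamma GTPases none passed edgeR's adjusted p or limma voom's, 1 passed in DESeq2, 3 had an unadjusted p under 0.05, and 1 rose and 1 fell without PF 2. Of 19 class I and 10 class II presentation genes 1 each fell, Nlrc5, which switches on class I genes, from 28.2 ± 3.09 to 18.9 ± 2.20 CPM, and the protease Ctss from 31.5 ± 2.82 to 24.7 ± 2.43 CPM. Without PF 2, 2 class I genes rose and 2 fell.

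Among 14 Kupffer cell markers 1 changed, the haemoglobin scavenger receptor Cd163, at 46.01, 34.6, 41.2 and 43.5 CPM in PF 1 to 4 and 27.03, 25.3, 31.99 and 29.3 CPM in PF+MBV 1 to 4. It fell (log2 -0.54 ± 0.10, edgeR adjusted p = 0.00968), while Clec4f, the defining marker of these resident macrophages, was at 117 ± 11.5 CPM without and 112 ± 6.45 CPM with MBV (adjusted p = 0.647). The summed Kupffer level was 566 to 701 CPM in PF and 562 to 658 CPM in PF+MBV. Without PF 2, 2 Kupffer markers rose and 1 fell. Of 20 endothelial markers 1 rose, Dnase1l3, and 1 fell, Clec14a, and 1 rose and 2 fell without PF 2. The filter kept 3 of 13 neutrophil, 4 of 13 B and plasma cell and 4 of 20 T and NK cell markers, and none of these passed edgeR's adjusted p or limma voom's. The 12 neutrophil markers counted before the filter summed to 16.8 to 41.2 CPM in PF and 13.8 to 20.3 CPM in PF+MBV. Of the 3 neutrophil markers tested, 2 had an unadjusted p under 0.05 and passed in DESeq2, lower with MBV. In edgeR's test without PF 2, 2 of the 3 fell. Of the 4 T and NK cell markers 1 had an unadjusted p under 0.05, and of the B and plasma cell markers none, and DESeq2 called none of either.

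Because MBV are vesicles, genes of vesicles and of their uptake were looked at. Of 35 measured genes of exosomes and endosomes 4 rose and 1 fell, and the fall was the largest change. Without PF 2, 8 rose and 1 fell. Tspan4, a tetraspanin of migrasomes, was at 45.4, 29.6, 51.6 and 51.3 CPM in PF 1 to 4 and 14.3, 19.4, 16.2 and 16.1 CPM in PF+MBV 1 to 4. PF 2 was the lowest PF library and lay above all PF+MBV libraries (log2 -1.43 ± 0.17, edgeR adjusted p = 0.00136). The tetraspanins Cd9, Cd81 and Tspan9 rose by 0.76, 0.35 and 0.42 on the log2 scale, and Anxa5, which binds phosphatidylserine, from 87.1 ± 8.81 to 125 ± 20.2 CPM. Of 32 uptake and lysosome genes the acid lipase Lipa rose from 249 ± 38.4 to 398 ± 23.4 CPM and the bridging ligand Gas6 from 28.5 ± 5.16 to 40.6 ± 2.14 CPM, and Cd163 and Ctss fell, while 4 rose and 3 fell without PF 2. Of 31 autophagy genes 3 rose and 3 fell, among them Ulk1, which starts autophagy, from 142 ± 11.5 to 183 ± 17.5 CPM, and Atg16l1 from 46.4 ± 7.61 to 29.4 ± 3.35 CPM. Without PF 2, 5 autophagy genes rose and 9 fell.

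Few genes of the basic cell machinery changed. None of 75 cytosolic ribosomal proteins passed edgeR's adjusted p or limma voom's, 3 passed in DESeq2, 11 had an unadjusted p under 0.05, and their median log2 difference was -0.06. Of 75 genes of oxidative phosphorylation 1 fell, Ndufv2, by 0.27 on the log2 scale, and of 58 mitochondrial ribosomal proteins 1 fell, Mrpl15, by 0.36. Of 32 proteasome genes 1 rose, Psmd11, by 0.37. Without PF 2, 1 cytosolic ribosomal protein rose and 4 fell, 4 oxidative phosphorylation genes fell, 1 mitochondrial ribosomal protein rose and 4 fell, and 6 proteasome genes rose. Among 26 hypoxia and glycolysis genes Ndrg1 rose from 11.2 ± 2.35 to 23.3 ± 3.20 CPM and Vegfa fell from 201 ± 8.03 to 157 ± 7.50 CPM, and both stayed changed whichever library was left out, with 2 higher and 5 lower in this list without PF 2.

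The MBV difference depended on the diet for part of these genes. The test of the difference, an interaction term fitted to all 16 libraries, passed edgeR's adjusted p of 0.05 in 512 of 12901 genes (3.97%). Of these 512 genes, 270 were also changed in pair-fed liver, against 8.53% of all genes tested there. The interaction contains the pair-fed difference and the same 8 libraries, so this overlap follows in part from shared values. The interaction value is the log2 difference with MBV in ethanol-fed mice minus that in pair-fed mice, and ethanol-fed values come from the scaling and fit of all 16 libraries. Of the 1064 genes changed in pair-fed liver, 392 (36.8%) had the same sign in ethanol-fed liver, against 5486 of all 12478 tested genes (44.0%). The count of interactions moved with single libraries, from 158 without PF 1 to 1085 without EtOH 4, and was 846 without PF 2. It was 183 and 283 without PF 3 and PF 4, 214, 202, 255 and 163 without PF+MBV 1 to 4, 254 without EtOH 2, and 323 and 182 without EtOH+MBV 2 and 3.

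Onecut1, Id2, Cpeb2 and Tubb2a had among the smallest interaction p-values, each with an adjusted p of 0.00487. In ethanol-fed liver Onecut1 went from 14.3 ± 1.59 to 15.4 ± 7.71 CPM with MBV, a log2 difference of 0.11 ± 0.31, and the interaction was 3.29 ± 0.45. Tubb2a went from 180.4 ± 36.4 to 151 ± 46.5 CPM (log2 -0.26 ± 0.23), with an interaction of -2.42 ± 0.34. Both ethanol-fed differences were close in size to their standard error or smaller. Socs2 went from 43.5 ± 9.97 to 29.2 ± 9.69 CPM there (log2 -0.58 ± 0.23), lower as in pair-fed liver but by less, with an interaction of 1.87 ± 0.33 (adjusted p = 0.0133). Gclc went from 346 ± 89.1 to 183 ± 49.4 CPM, the opposite direction to pair-fed liver, with an interaction of -2.43 ± 0.36 (adjusted p = 0.00487). Slc30a10 went from 22.7 ± 12.99 to 43.3 ± 10.8 CPM, close to its pair-fed rise (interaction -0.15 ± 0.53, adjusted p = 0.887).

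The largest interactions included genes of macrophages and of the interferon response. Mmp12, a macrophage elastase, was at 0.611 ± 0.480 CPM without and 1.32 ± 0.0969 CPM with MBV, and went from 10.00 ± 14.3 to 0.411 ± 0.158 CPM in ethanol-fed liver, with an interaction of -5.74 ± 1.26 (edgeR adjusted p = 0.0252). Tcf24, Rsad2, Atp2b2 and the chemokine Cxcl10 had interactions of -4.85, -4.70, -4.24 and -4.10. Rsad2 went from 80.2 ± 125 to 4.74 ± 1.55 CPM in ethanol-fed liver. In Mmp12 and Rsad2 the SD of the EtOH libraries exceeded their mean. In the other direction, Cyp21a1, Scara5, the esterase Ces4a, the calpain Capn8 and C4a had interactions of 3.88, 3.39, 3.38, 3.31 and 3.30. Abcc12, a transporter too low to be tested in pair-fed liver alone, had an interaction of -5.18. Capn8 did not pass the test in pair-fed liver, where PF 2 alone was at 9.65 CPM and the other PF libraries at 1.84 to 2.74 CPM.

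**Figure D5:**
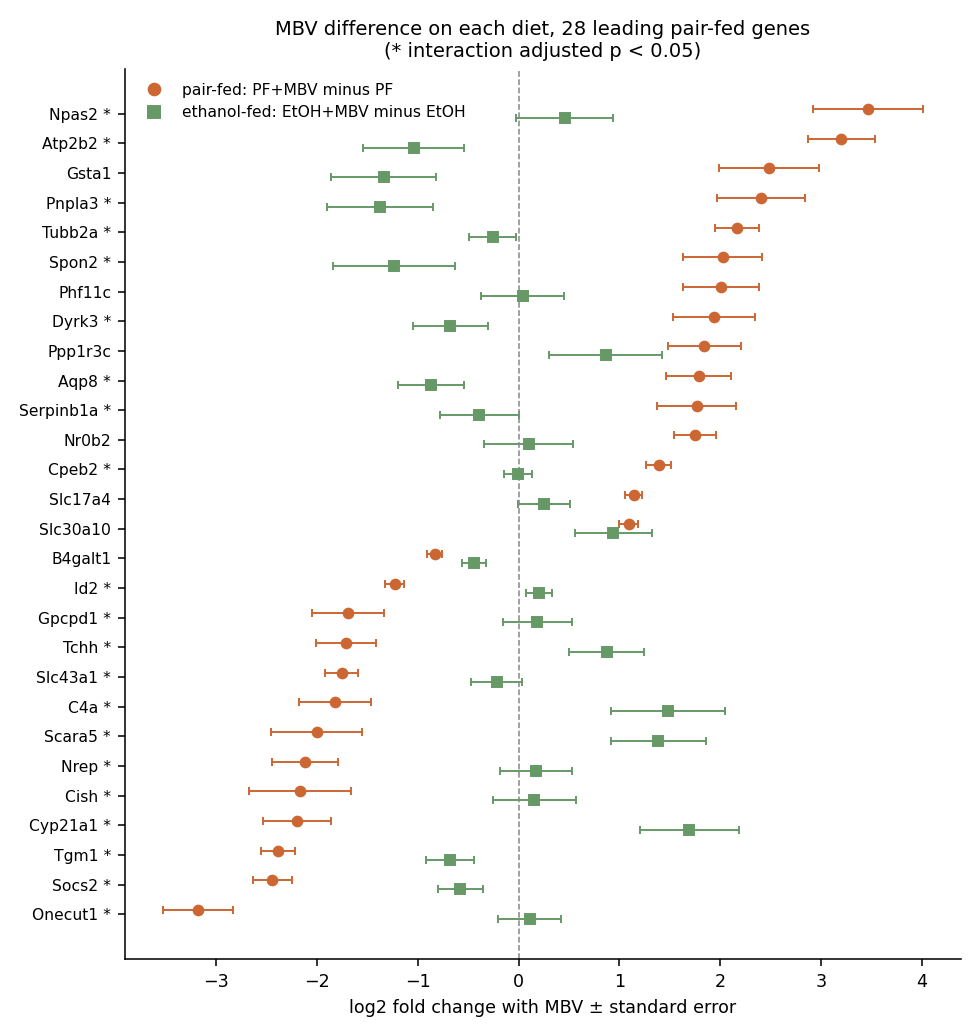
Log2 fold change with MBV (horizontal axis, ± standard error, n = 4 libraries per group) of 28 leading pair-fed genes, in pair-fed liver from the fit of 8 libraries (circles) and in ethanol-fed liver from the fit of 16 libraries (squares); an asterisk marks an interaction with an adjusted p under 0.05. Onecut1, at -3.18 in pair-fed and 0.11 in ethanol-fed liver, and Tubb2a, at 2.16 and -0.26, differ between the diets, and Slc30a10, at 1.09 and 0.94, lies at similar values on both.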

How the data were processed

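Polyadenylated liver RNA was sequenced. The authors deposited raw counts per gene from STAR on mm10 after trimming with Trimmomatic, per the submitters' processing notes, and the unstranded counts were used, so overlapping genes on opposite strands cannot be separated. Rows that are not genes (4) were left out, with no-feature reads at 9.40% to 10.8%. edgeR 4.0.16 in R 4.3.3 (minimum count 10, TMM scaling, robust quasi-likelihood, Benjamini-Hochberg limit 0.05) compared 4 PF+MBV with 4 PF libraries of 15.3 M to 20.5 M gene counts. An interaction was fitted to all 16 libraries. Alternatives used DESeq2 1.42.0, limma 3.58.1, other scalings and filters, a replicate block and leaving out each library. Tested on simulated data, the pair-fed comparison recovered 77% of 2-fold and 94% of 4-fold changes over 12478 genes with 5.52% false calls. The interaction recovered 42% and 83% over 12901 genes with 3.10%. The simulation drew each gene on its own and had no library set apart as PF 2 was, so these shares may not hold here. Genes were named from the 12 largest rises and falls without overlap and at least 1 CPM, the 8 smallest p-values, for each of 60 gene lists up to 4 members with the smallest p and the 2 with the highest CPM, and the 6 largest interactions of each sign. Predicted models are counted only, and some genes that meet the rule are not reported here. Members, lists and rules were chosen with earlier results of these data known. Coordinates are of GENCODE vM21 on GRCm38, promoters from RefSeq GRCm38.p6.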

Additional observations from a re-analysis of the deposited data

Results flagged for a closer look

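For 81 of 225 named genes tested (36%), the difference with MBV itself differed between the diets, by the interaction test with an edgeR adjusted p under 0.05, against 3.97% of all 12901 genes. Many of the named genes were chosen for their pair-fed differences, and 12 of these 81 for the size of the interaction, so their share follows in part from that choice. The values are the log2 difference in ethanol-fed mice minus that in pair-fed mice. Among genes of sterol and fat synthesis the value was negative for Pnpla3 (-3.76), Hmgcs1 (-2.51), Insig1 (-2.29), Msmo1 (-1.81), Gpam (-1.06) and Hsd17b7 (-0.995). It was negative for the glutathione and conjugation genes Srxn1 (-2.87), Gclc (-2.43), Nqo1 (-2.31), Gstm4 (-1.75), Pgd (-1.47), Ugdh (-1.44), Gstm1 (-1.31), Gsr (-1.21), Abcc3 (-0.89) and Txnrd1 (-0.75). Cytoskeletal genes with a negative value were Tubb2a (-2.42), Tuba1b (-1.76), Tubb5 (-1.39), Tuba1a (-1.28), Tubb4b (-1.25) and Tpm4 (-1.15). Matrix and adhesion genes with a negative value were Spon2 (-3.25), Col3a1 (-2.44), Nid2 (-2.10), Itga8 (-1.93), Serpinh1 (-1.47), Sparc (-0.88) and Col4a1 (-0.83). Among genes of vesicles and uptake it was negative for Cd9 (-1.36), Anxa5 (-1.28), Lipa (-0.97) and Tspan9 (-0.73) and positive for Tspan4 (1.66) and Cd163 (1.13).

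Among hepatocyte factors the value was positive for Onecut1 (3.29), Prox1 (1.76), Nr2f2 (0.94), Cebpa (0.93) and Onecut2 (0.84). In growth hormone and clock genes it was positive for Cish (2.32), Per3 (2.23), Socs2 (1.87), Per2 (1.79) and Egfr (1.79) and negative for Npas2 (-3.00) and Abcd2 (-1.43). Among genes of inflammation and interferon it was negative for Mmp12 (-5.74), Rsad2 (-4.70), Cxcl10 (-4.10), Tnfaip3 (-1.74) and Nfkbia (-0.99). The other genes with a negative value were Abcc12 (-5.18), Tcf24 (-4.85), Atp2b2 (-4.24), Aqp8 (-2.65), Dyrk3 (-2.62), Mcm2 (-2.50), Serpinb1a (-2.15), Ndrg1 (-1.93), Cpeb2 (-1.39), Tiparp (-1.25), Ahr (-1.17), Sesn1 (-1.15), Dnase1l3 (-0.72), Gldc (-0.69), Slc39a8 (-0.68) and Psmd11 (-0.58). The other genes with a positive value were Cyp21a1 (3.88), Scara5 (3.39), Ces4a (3.38), Capn8 (3.31), C4a (3.30), Tchh (2.59), Nrep (2.29), Gpcpd1 (1.88), Tgm1 (1.71), Slc43a1 (1.54), Clec14a (1.53), Id2 (1.43) and Slc30a1 (0.93). The cause of these differences was not tested.

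In 16 groups of 4 libraries a library lay far from the other 3 by Dixon's ratio of gap to range on log2 CPM, a test that chance alone meets in about 1 in 20 groups. These were 16 of 448 groups looked at, a smaller share than 1 in 20, and 7 of the 16 were PF 2. PF 2 was set apart as the lowest library for Ahr (41.6 CPM), Ces2a (199.7 CPM), Cry1 (8.56 CPM) and Usp2 (43.6 CPM). PF 2 was set apart as the highest library for Bdh1 (269.9 CPM), Ccne1 (3.45 CPM) and Insig1 (284 CPM). PF 4 was set apart as the highest library for Efemp1 (8.3 CPM), Mmp12 (1.33 CPM) and Srxn1 (36.5 CPM). PF+MBV 4 was set apart as the highest library for Bdh1 (345 CPM) and Col4a1 (78.4 CPM). PF 3 was set apart as the highest library for C4b (2515 CPM) and Col14a1 (57.7 CPM). PF+MBV 1 was set apart as the highest library for Clec4f (122 CPM). PF+MBV 2 was set apart as the highest library for Ddit3 (9.04 CPM).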

How the results depend on the processing

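With the main count at 1064 changed genes, 503 higher and 561 lower, DESeq2 called 1710 (811 higher, 899 lower) and the fit of all 16 libraries 231 (99 higher, 132 lower). Leaving out single libraries gave 398 to 2648 changed genes, 193 to 1288 higher and 205 to 1360 lower. The counts were 424 without PF 1, 2648 without PF 2, 398 without PF 3, 461, 468, 686 and 477 without PF+MBV 1 to 4, and 785 without PF 4. All 1064 genes kept their direction in every setting that tested them. Other size factors (RLE), no filter on low counts, a minimum count of 50 and limma voom gave 1064, 1093, 1068 and 1092 genes. Library size alone gave 1117, with 709 higher and 408 lower, and moved the median of all genes from 0.00 to 0.07. The labels do not say whether the same repeat number marks paired libraries. The correlations of deviations from the group means were -0.08 to 0.12 for same-numbered and -0.27 to 0.17 for other pairs. Same-numbered libraries were thus no more alike than others, but so few pairs cannot settle whether libraries were paired. With the replicate block 1181 genes were changed, 584 higher and 597 lower, 915 of them shared, and 489 interactions were called.

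The 512 interactions became 1113 in DESeq2, 517 with RLE and 375 with no filter. Without single libraries they ranged from 158 to 1085, at 158, 846, 183 and 283 without PF 1 to 4, 254 and 1085 without EtOH 2 and EtOH 4, 323 and 182 without EtOH+MBV 2 and 3, and 214, 202, 255 and 163 without PF+MBV 1 to 4. Genes that changed sign were not past the limit in either setting. These were Cyp3a11 (0.038 with library size alone, 0.021 without PF 3, 0.026 without PF+MBV 1, and -0.097 to 0.026 over the fits without a library), Adh1 (0.011 with library size alone), Acta2 (-0.17 without PF+MBV 2, and up to 0.44 without PF+MBV 1), Capn8 (0.034 without PF 2, and down to -1.08) and Per1 (-0.090 without PF 2, -0.073 without PF+MBV 3, and up to 0.17). Over all named genes and alternatives, 725 values lost the call with the same direction, 56 gained it and 2777 kept their side of the limit. Fits without a library have 3 samples in a group and so less power, and the cause of the rise without PF 2 was not tested. Genes near 1 CPM rest on few reads.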
